A study of Rattus norvegicus with 8 samples.

Results

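The family of miR-34 and miR-449 was followed in the left medial vestibular nucleus (MVN) of rats after unilateral vestibular deafferentation (UVD) or a sham operation (SO). Its members were taken as every miRNA on the array named miR-34a, miR-34b, miR-34c, miR-449a or miR-449c, with either arm of the precursor, which gave 10 of 758 rat miRNAs. The MVN, in the brainstem, is a main target of the vestibular nerve, and the study asked how its miRNAs change while rats compensate for the loss of input from the operated labyrinth. All animals were male Sprague–Dawley rats, 7 weeks old, and all had surgery on the left ear under anesthesia. The groups were UVD at 4 d, UVD at 4 h, SO at 4 d and SO at 4 h after surgery. In the UVD group the vestibule was opened and rinsed with ethanol (99% in the sample labels). The SO group had the same exposure of the middle ear without the opening and without ethanol.

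Each group had 2 arrays, and each array measured RNA pooled from 3 animals, so that the spread within a group is a spread between pools. All 8 arrays lay on 1 slide, with the UVD group in row 2 and the SO group in row 1, and with the 4 d samples in columns 1 and 2 and the 4 h samples in columns 3 and 4. Position on the slide and group therefore cannot be told apart. Between 378 and 430 miRNAs were detected per array, and no spot was saturated. The miRNAs of neurons, oligodendrocytes, leukocytes, erythroid cells, vessels, muscle and choroid plexus that were listed as markers (32 in all) were each detected on all 8 arrays, and of the Hox-cluster miRNAs of the hindbrain miR-10a-5p and miR-10b-5p were detected on all arrays and miR-196a-5p and miR-196b-5p on none. The values are intensities in arbitrary units, quantile normalized over the 8 arrays, and log2 fold changes were tested with limma over the 422 miRNAs that 1 group or more had detected on both of its arrays. p-values were adjusted over all 422 by Benjamini-Hochberg, and an adjusted p under 0.05 is a call.

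MicroRNAs are short RNAs that are cut from hairpin precursors and guide silencing proteins to mRNAs, chiefly through the seed at bases 2 to 8 of their 5′ end. The family is known for its abundance in multiciliated cells, among them the ependymal cells that line the ventricles, the choroid plexus and the airway epithelium, and mice without it have defects of motile cilia. miR-34a is transcribed from a gene of its own, is widespread in the brain and, like the shared gene of miR-34b and miR-34c, is a known target of p53 in human and mouse cells. The MVN lies beside the ventricle, so a dissected sample can hold ependyma.

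The mature sequences of all 10 members were matched by name in a RefSeq table (rat build GRCr8). The 5p arms are shown because their seed, in capitals, is what makes them a family; the prefix rno, for rat, is left out elsewhere.
rno-miR-34a-5p: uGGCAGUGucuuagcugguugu
rno-miR-34b-5p: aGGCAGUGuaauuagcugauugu
rno-miR-34c-5p: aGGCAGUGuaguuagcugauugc
rno-miR-449a-5p: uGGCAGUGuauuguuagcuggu
rno-miR-449c-5p: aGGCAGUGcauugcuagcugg
All 5 of these arms carried the same seed, and no other of the 693 mature rat miRNAs in the table did. Outside the seed they differed. miR-34b-5p and miR-34c-5p were identical at 21 of 23 bases, with the substitutions A11G and U23C, counted from the 5′ end with the base of miR-34b-5p first. miR-449a-5p and miR-449c-5p were identical at 18 of 21 aligned bases, and miR-34a-5p and miR-449a-5p at 15 of 22. Cross-hybridization between near-identical arms was not tested, so that the values of miR-34b-5p and miR-34c-5p may share signal.

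The 3p arms have other seeds. Those of miR-34b and miR-34c are shown because they are the only 3p arms of the family with a seed in common.
rno-miR-34b-3p: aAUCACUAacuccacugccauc
rno-miR-34c-3p: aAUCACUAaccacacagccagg
These arms were identical at 17 of 22 bases. The 3p arms of miR-34a, miR-449a and miR-449c had seeds that no other mature miRNA in the table shared.

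The precursors came from 3 places in the genome. Mir34b (chr8:60306609-60306692) and Mir34c (chr8:60306091-60306167) lie on the minus strand with 441 bases between them, and Mir34c falls within the annotated bounds of Hoatz, a gene of cilia and flagella. The hairpins of this pair, whose arms gave the differences described below, are shown with the mature arms in capitals.
Mir34b: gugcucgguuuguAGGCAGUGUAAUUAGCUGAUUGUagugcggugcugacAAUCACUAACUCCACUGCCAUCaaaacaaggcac
Mir34c: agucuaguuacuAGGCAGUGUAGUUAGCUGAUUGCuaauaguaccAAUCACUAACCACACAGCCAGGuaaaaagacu
Mir449c (chr2:46402375-46402473) and Mir449a (chr2:46403910-46404000) lie on the plus strand, 1436 bases apart, inside an annotated uncharacterized gene (LOC134485839). Within 50 kb of them the table lists Mcidas, the gene of multicilin, which starts the multiciliated cell program, and Ccno, which is needed for the multiplication of centrioles. Mir34a (chr5:165815952-165816053) lies on the plus strand of another chromosome, within the bounds of LOC103692514.

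Of the 10 members, 7 were detected on at least 1 array and all 7 passed the detection filter. Both arms of miR-34a, miR-34b and miR-34c were detected on all 8 arrays. miR-449a-5p was detected on 7 arrays and close to the limit, and miR-449a-3p, miR-449c-5p and miR-449c-3p were detected on none, so that no level or change is given for them. Within each array miR-34a-5p ranked between 9 and 13 among all miRNAs by total signal, miR-34b-5p between 69 and 93, miR-34c-5p between 75 and 109, miR-34a-3p at 133 at the highest, miR-34b-3p between 256 and 298, miR-34c-3p between 319 and 357 and miR-449a-5p, where detected, between 357 and 395. These ranks describe probe signals, which depend on the probe, and are not an order of abundance. The measurement error given by the scanner software was between 7.25% and 7.65% of the signal for the 5p arms of miR-34a, miR-34b and miR-34c, between 9.95% and 11.8% for miR-34c-3p and between 14.8% and 24.4% for miR-449a-5p.

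**Figure D1:**
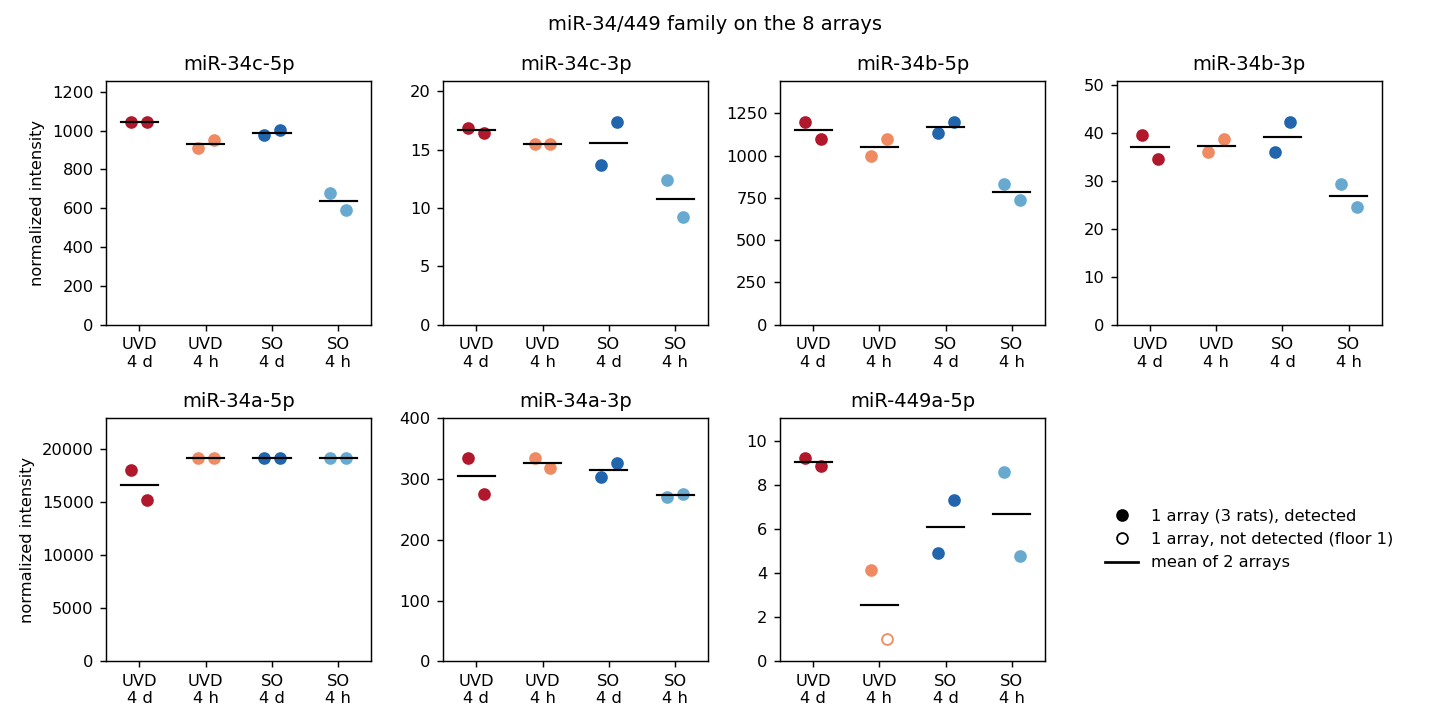
Normalized intensity (arbitrary units, linear axes starting at 0) of the 7 detected members on each of the 8 arrays, by group; points are single arrays of 3 pooled rats, lines are means of 2 arrays, and the open point is an array on which miR-449a-5p was not detected. Both SO arrays at 4 h lie below the other 6 arrays in the panels of miR-34c-5p, miR-34c-3p, miR-34b-5p and miR-34b-3p, and not in those of miR-34a-5p, miR-34a-3p and miR-449a-5p.

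All 4 arms of the miR-34b and miR-34c pair had their lowest values in SO rats at 4 h. In the plot of intensities by array, the 2 SO arrays at 4 h lay below all 6 other arrays for each of the 4 arms, a pattern that 52 of the 422 tested miRNAs (12.3%) had. miR-34c-5p had an intensity of 1046 on both UVD arrays at 4 d, of 912 and 949 on the UVD arrays at 4 h, of 976 and 1000.3 on the SO arrays at 4 d, and of 681 and 590.0 on the SO arrays at 4 h. No 2 groups of arrays overlapped for miR-34c-5p, and the order of the means was UVD at 4 d, SO at 4 d, UVD at 4 h and SO at 4 h. The first 3 of these groups differed little: their means were 1046 ± 0, 988 ± 17.2 and 931 ± 26.8, against 635 ± 64.0 in SO rats at 4 h (SD, n = 2 arrays each). The SD of 0 is a tie and not a measured agreement of the pools. miR-34c-5p ranked 75 on both UVD arrays at 4 d, and quantile normalization gives equal ranks an equal value. Its unnormalized signals there were 1321 and 1001. The spread that limma pools over the groups includes this 0.

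miR-34b-5p, the 5p arm of the other precursor of the pair, had intensities of 1201 and 1099 on the UVD arrays at 4 d, 1000.3 and 1099 on the UVD arrays at 4 h, 1133 and 1201 on the SO arrays at 4 d, and 829 and 740.2 on the SO arrays at 4 h. The arrays of the 3 higher groups overlapped with their neighbors, and only the SO group at 4 h stood below them. miR-34b-3p had 39.4 and 34.4 in UVD rats at 4 d, 35.9 and 38.6 in UVD rats at 4 h, 35.9 and 42.3 in SO rats at 4 d, and 29.4 and 24.4 in SO rats at 4 h. miR-34c-3p had 16.8 and 16.4 in UVD rats at 4 d, 15.5 on both arrays of the UVD group at 4 h, 13.7 and 17.4 in SO rats at 4 d, and 12.4 and 9.22 in SO rats at 4 h. For both 3p arms, as for miR-34b-5p, the 3 higher groups overlapped with their neighbors and the SO group at 4 h did not.

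In the SO group, miR-34c-5p was higher at 4 d than at 4 h, with a log2 fold change of 0.64 ± 0.08 (SE), or 1.56-fold (adjusted p = 0.0386, limma). It was the only member called in this comparison, in which 7 of 422 miRNAs (1.66%) were called and 1 (0.237%) was called higher at 4 d. miR-34b-5p had a log2 fold change of 0.57 ± 0.09 (adjusted p = 0.0666), miR-34b-3p of 0.54 ± 0.14 (adjusted p = 0.148) and miR-34c-3p of 0.53 ± 0.18 (adjusted p = 0.165), and none of these passed. miR-34a-3p had 0.20 ± 0.10 (adjusted p = 0.322), miR-34a-5p 0.00 ± 0.09 and miR-449a-5p -0.09 ± 0.71. The median over the 7 tested members was 0.53, against 0.00 over all tested miRNAs. The arrays of the 2 timepoints did not overlap for 5 of the 7 members, against 54.3% of all tested miRNAs, a share too high for this count to set the members apart. By the methods' t-test at its threshold of 0.15, 4 of the 6 members with a defined test passed, against 35.1% of all miRNAs, and 0 after adjustment. The paper's selection also set limits on the fold change, which were not applied to these counts. It left out miRNAs that changed over time in the SO group by such limits.

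The size of the miR-34c-5p difference in the SO group stayed similar under other scalings and without single arrays, while its call did not hold. Settings that change only the filter, the floor or the test leave this fold change as it is, and so do not bear on its size. The log2 fold change lay between 0.54 and 0.75 in 24 alternatives, and the adjusted p was above the threshold in 16 of them, with values between 0.0125 and 0.379 over all 24. Leaving out any 1 of 7 arrays ended the call, with adjusted p between 0.0582 and 0.146, and it held without SO replicate 1 at 4 h (adjusted p = 0.0310).

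**Figure D2:**
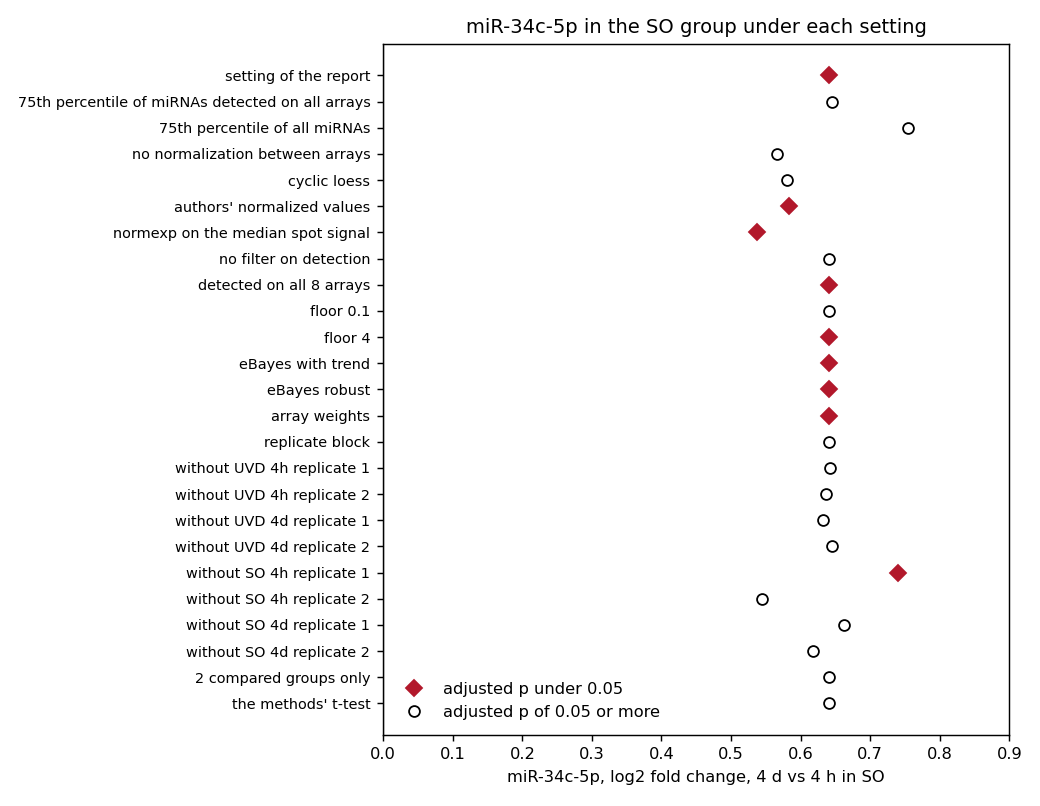
log2 fold change of miR-34c-5p between 4 d and 4 h in the SO group (horizontal axis) under the setting of the report and each of 24 alternatives, listed down the plot; diamonds have an adjusted p under 0.05 and open circles do not. The values lie between 0.54 and 0.75, and 16 of the 24 alternatives are open circles.

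At 4 h, the miR-34b and miR-34c arms had higher means after UVD than after SO, and no member passed the test. The log2 fold change was 0.55 ± 0.08 for miR-34c-5p (adjusted p = 0.0747), 0.42 ± 0.09 for miR-34b-5p (adjusted p = 0.162), 0.47 ± 0.14 for miR-34b-3p and 0.53 ± 0.18 for miR-34c-3p (adjusted p = 0.247 for both). miR-34a-3p had 0.25 ± 0.10 (adjusted p = 0.299), and miR-34a-5p had 0.00 ± 0.09. limma called 0 of 7 members against 2 of 422 miRNAs (0.474%), and 4 members had an unadjusted p under 0.05, as did 72 of the 422 miRNAs. By the methods' t-test, 5 of the 6 members with a defined test passed its threshold, against 32.3% of all miRNAs, and 0 after adjustment. The arrays of the groups did not overlap for 6 of the 7 members, 1 of them (miR-449a-5p) only through a value at the floor, against 50.9% of all tested miRNAs. The call of miR-34c-5p was gained with 2 alternatives, at an adjusted p of 0.0437 with normexp background correction and of 0.0335 with a trend in the variance model. The comparison at 4 h and the comparison of timepoints in the SO group share the SO arrays at 4 h, so the differences in them are not independent of each other.

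**Figure D3:**
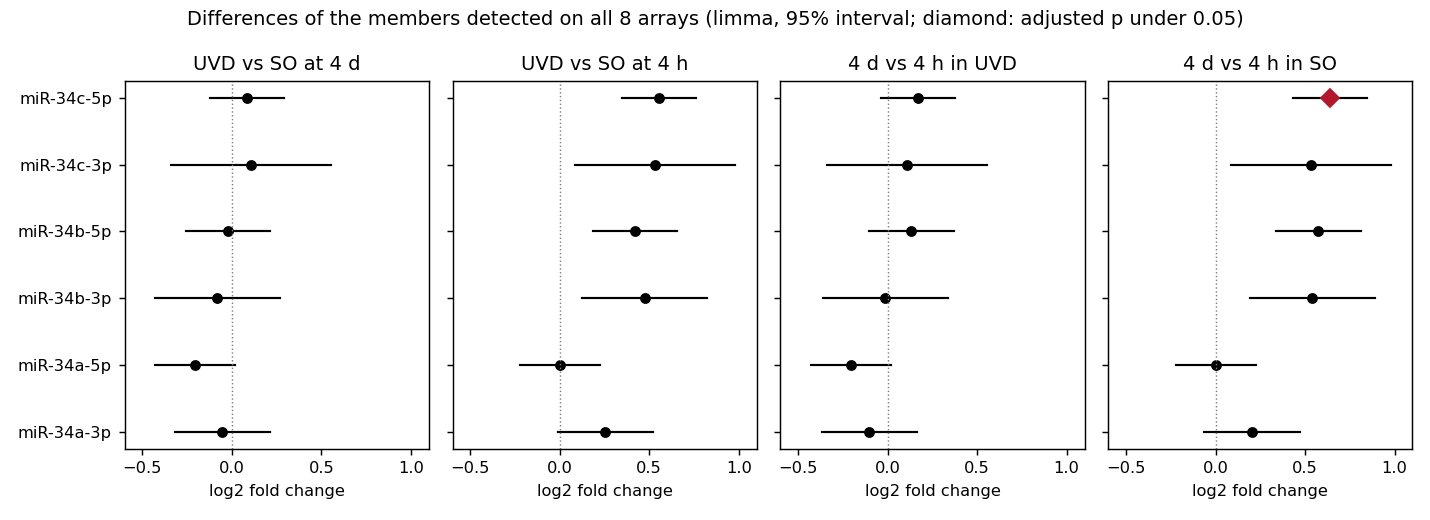
log2 fold change (points) and 95% confidence interval (lines, limma) of the 6 members detected on all 8 arrays, for UVD against SO at each timepoint and for 4 d against 4 h within each operation; the diamond marks an adjusted p under 0.05. miR-34c-5p in the SO group, at 0.64, is the only diamond, and the miR-34b and miR-34c arms lie between 0.42 and 0.64 in the 2 comparisons that use the SO arrays at 4 h.

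At 4 d, the UVD and SO groups lay close together. The log2 fold change was 0.08 for miR-34c-5p, with a 95% interval of -0.12 to 0.29, and -0.02 for miR-34b-5p, with an interval of -0.26 to 0.21. It was 0.11 for miR-34c-3p (-0.34 to 0.56) and -0.08 for miR-34b-3p (-0.43 to 0.27). These intervals do not exclude differences of up to the bounds given, in either direction. limma called 0 of 7 members and 0 of 422 miRNAs (0%), and at an unadjusted p under 0.05 the counts were 0 of 7 and 16 of 422. By the methods' t-test 1 of 7 members passed its threshold, against 14.3% of all miRNAs, and 0 after adjustment. Arrays of the groups did not overlap for 3 of 7 members, against 29.4% of all tested miRNAs. The median was -0.02 over the members and -0.02 over all tested miRNAs.

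Within the UVD group, the same arms differed by less between 4 d and 4 h, and no member passed. The log2 fold change was 0.17 for miR-34c-5p (95% interval -0.04 to 0.38), 0.13 for miR-34b-5p (-0.11 to 0.37), 0.11 for miR-34c-3p (-0.34 to 0.55) and -0.01 for miR-34b-3p (-0.36 to 0.33). limma called 0 of 7 members and 0 of 422 miRNAs (0%), with 1 of 7 and 65 of 422 at an unadjusted p under 0.05. By the methods' t-test 2 of 7 members passed its threshold, against 27.9% of all miRNAs, and 0 after adjustment. Arrays of the timepoints did not overlap for 4 of 7 members, against 44.3% of all tested miRNAs. The change over time in the UVD group minus that in the SO group was -0.47 ± 0.12 for miR-34c-5p (adjusted p = 0.402), -0.44 ± 0.13 for miR-34b-5p, -0.55 ± 0.19 for miR-34b-3p and -0.42 ± 0.25 for miR-34c-3p, and none passed (adjusted p of 0.402 or more, limma). This test called 1 of 422 miRNAs (0.237%), and 3 members and 37 miRNAs had an unadjusted p under 0.05. A difference between the groups in the change over time was thus not shown for any member.

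Averaged over both operations, miR-34c-5p was higher at 4 d than at 4 h by 0.40 ± 0.06 on the log2 scale (1.32-fold, adjusted p = 0.0498, limma), and the arrays of the timepoints did not overlap, which held for 1 of 7 tested members and 12.1% of all tested miRNAs. It was 1 of 7 miRNAs of 422 (1.66%) called and 1 of 3 (0.711%) called higher at 4 d. The adjusted p lay just under the threshold and was above it in 14 of 22 alternatives, with a log2 fold change of 0.34 to 0.49. Leaving out 1 array ended this call for 6 of the 8 arrays (adjusted p between 0.0681 and 0.148), and it held without SO replicate 1 at 4 h (0.0469) and without SO replicate 1 at 4 d (0.0470). miR-34b-5p had 0.35 ± 0.07 (adjusted p = 0.0671). Averaged over both timepoints, UVD against SO gave 0.32 ± 0.06 for miR-34c-5p and 0.20 ± 0.07 for miR-34b-5p (adjusted p = 0.141 and 0.351), with 0 of 7 members and 0 of 422 miRNAs (0%) called and 3 and 55 at an unadjusted p under 0.05.

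**Figure D4:**
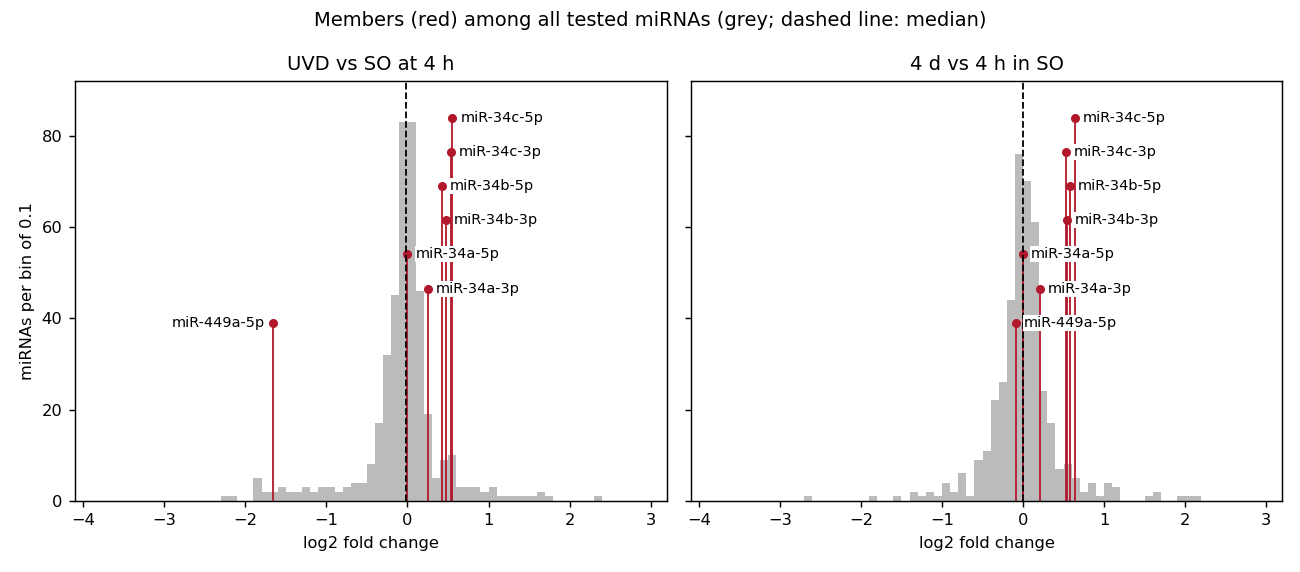
Distribution of log2 fold changes over the 422 tested miRNAs (grey, number of miRNAs per bin of 0.1) with the 7 tested members in red (heights only separate the labels), for UVD against SO at 4 h and for 4 d against 4 h in the SO group; dashed lines are the medians of all miRNAs, at -0.01 and 0.00. The miR-34b and miR-34c arms lie between 0.42 and 0.64 in both panels, to the right of the median.

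Among all tested miRNAs the arms of the pair were toward the upper end without being at it. In the SO group at 4 d against 4 h, miR-34c-5p ranked 24 of 422 from the highest fold change, miR-34b-5p 26, miR-34b-3p 30 and miR-34c-3p 31. For UVD against SO at 4 h the ranks were 29 for miR-34c-5p, 31 for miR-34c-3p, 35 for miR-34b-3p and 39 for miR-34b-5p. By p rather than size, miR-34c-5p ranked 4 of 422 in the SO group over time and 5 of 422 at 4 h.

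Probes of an arm were also compared singly. With arrays scaled to the 75th percentile of the miRNAs detected on all arrays, the 2 probes of miR-34c-5p gave log2 differences of 0.60 and 0.66 between 4 d and 4 h in the SO group, and 0.63 and 0.62 between UVD and SO at 4 h. Those of miR-34b-5p gave 0.70 and 0.61 over time in the SO group, and 0.58 and 0.55 at 4 h. Those of miR-34b-3p were further apart, at 0.71 and 0.59 over time in the SO group, and 0.78 and 0.60 at 4 h. Only 1 of the 4 probes of miR-34c-3p was above 1 on all arrays. That probe alone gave 0.59 over time in the SO group, 0.65 between UVD and SO at 4 h and -0.03 at 4 d. miR-34c-3p as a whole had 0.59, 0.74 and 0.14 under the same scaling. Its values in the UVD comparisons therefore did not rest on that probe alone.

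For miR-34a, whose gene lies apart from that of miR-34b and miR-34c, the SO arrays at 4 h did not both lie below all others. miR-34a-5p had 18049 and 15246 on the UVD arrays at 4 d and 19146 on each of the other 6 arrays. The 6 equal values arise because quantile normalization gives a miRNA the value of its rank, and miR-34a-5p ranked 9 on all 6 arrays. Its unnormalized signal was 24346 and 17167 in UVD rats at 4 d, 17322 and 18679 in UVD rats at 4 h, 18846 and 19360 in SO rats at 4 d and 15139 and 19187 in SO rats at 4 h. The arrays of UVD at 4 d and those of SO at 4 h each overlapped with every other group. The log2 fold change of miR-34a-5p was -0.21 ± 0.09 both for UVD against SO at 4 d (adjusted p = 0.745) and for 4 d against 4 h after UVD (adjusted p = 0.319). miR-34a-3p, the other arm of the duplex, had 334 and 275 in UVD rats at 4 d, 334 and 318 in UVD rats at 4 h, 304 and 326 in SO rats at 4 d, and 271 and 275 in SO rats at 4 h. Its mean was lowest in SO rats at 4 h, as for the pair, but 1 SO array there tied with 1 UVD array at 4 d. The highest log2 fold change of miR-34a-3p in a comparison of groups was 0.25 ± 0.10, for UVD against SO at 4 h. Scaled to the 75th percentile of miRNAs detected on all arrays, both miR-34a arms had 0.31 there. The median of all miRNAs was then 0.12. Over time in the SO group the 5p arm had 0.24 and the 3p arm 0.21 on that scale, against a median of 0.09. Other p53-linked miRNAs, known as such from human cells, had 0 of 6 tested members called by limma in each of the 7 comparisons, and between 0 and 3 at an unadjusted p under 0.05. Their medians were 0.07 between 4 d and 4 h in the SO group and 0.00 between UVD and SO at 4 h. Of this list, miR-16-5p had means of 6803 in SO rats at 4 d and 6203 in SO rats at 4 h, and miR-107-3p had 5118 in SO rats at 4 d and 5057 in SO rats at 4 h.

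The scaling of the arrays moved the values of both 3p arms of the pair more than those of the 5p arms. Without quantile normalization, scaling to the 75th percentile shifted the median of all miRNAs to between 0.09 and 0.20 for the time comparison in the SO group and to between 0.12 and 0.15 for UVD against SO at 4 h, and unscaled signals shifted it to 0.26 for 4 d against 4 h after UVD. Relative to the median of all miRNAs in the same setting, the log2 fold change over time in the SO group was 0.53 to 0.64 for miR-34c-5p, 0.55 to 0.57 for miR-34b-5p, 0.19 to 0.58 for miR-34b-3p and 0.10 to 0.53 for miR-34c-3p over 7 scalings. It was 0.00 to 0.15 for miR-34a-5p on the same basis. For UVD against SO at 4 h it was 0.48 to 0.57 for miR-34c-5p, 0.43 to 0.47 for miR-34b-5p, 0.17 to 0.55 for miR-34b-3p, 0.12 to 0.68 for miR-34c-3p and 0.00 to 0.19 for miR-34a-5p. The low ends of both 3p arms came with normexp correction.

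**Figure D5:**
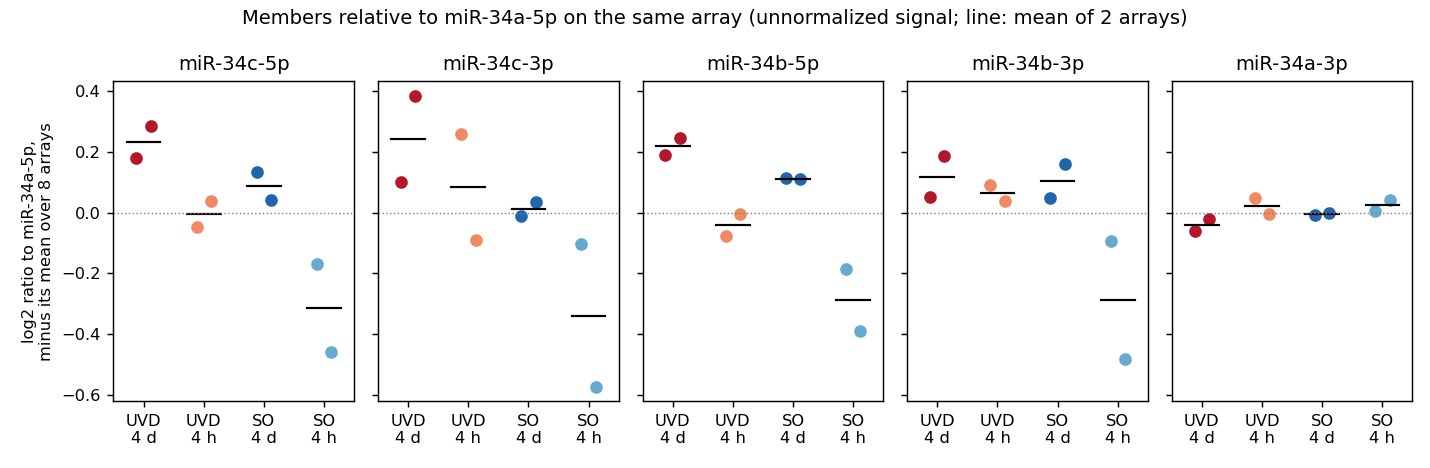
log2 ratio of each member to miR-34a-5p on the same array, from signals without normalization and minus its mean over the 8 arrays (vertical axis), by group; points are arrays and lines are means of 2 arrays. In the panels of the miR-34b and miR-34c arms the 2 SO arrays at 4 h are the lowest of the 8, and in the panel of miR-34a-3p all arrays lie within 0.1 of 0.

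A ratio within an array does not depend on the factor by which an array is scaled. Relative to miR-34a-5p on the same array, the log2 ratio of miR-34c-5p, centered on its mean over the 8 arrays, averaged 0.23 in UVD rats at 4 d, -0.01 in UVD rats at 4 h, 0.09 in SO rats at 4 d and -0.31 in SO rats at 4 h. For miR-34b-5p it averaged 0.22 in UVD rats at 4 d, -0.04 in UVD rats at 4 h, 0.11 in SO rats at 4 d and -0.29 in SO rats at 4 h. Both SO arrays at 4 h had the lowest ratios of the 8 arrays for all 4 arms of the pair; for miR-34c-3p the gap was narrow, with -0.10 on the higher of them and -0.09 on the lowest of the other 6. The mean ratio at 4 d minus that at 4 h in the SO group was 0.40 for miR-34c-5p, 0.40 for miR-34b-5p, 0.39 for miR-34b-3p and 0.35 for miR-34c-3p, against -0.03 for miR-34a-3p. These ratios were not tested. How many of all miRNAs had both SO arrays at 4 h lowest by this ratio was not counted, so the pattern does not set the pair apart.

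Over the 8 arrays, the 4 arms of the pair varied together. Of 15 pairs among the 6 members detected on all arrays, 7 passed at an adjusted p under 0.05 in an exact permutation test of Pearson's r, and 6 of these were the pairs among the 4 arms. miR-34b-5p and miR-34c-5p had r = 0.97 (exact permutation p = 0.000893, adjusted p = 0.00967) and Spearman's rho = 0.85 (adjusted p = 0.0423). By rho, 5 of the 6 pairs passed, each at the same adjusted p, and miR-34b-3p with miR-34c-5p did not (rho = 0.63, adjusted p = 0.174, exact permutation). The lowest of the 6 was miR-34b-5p with miR-34c-3p, at r = 0.91 (adjusted p = 0.0119, exact permutation). The 2 arrays farthest from the median were the SO arrays at 4 h in each of these 6 pairs, and without them r fell to between 0.12 (miR-34b-3p with miR-34c-5p) and 0.72 (miR-34b-5p with miR-34c-5p). The relation therefore rests in part on those 2 arrays. The permutations mixed the 8 arrays without regard to group. Their p-values therefore do not separate a difference shared between groups from variation between single arrays. The deviations of the arrays from their own group means, which leave the groups out, had r of 0.72 to 0.93 within the 6 pairs, as a description that rests on 4 differences between the 2 arrays of a group. The remaining pair that passed was miR-34a-3p with miR-34b-3p (r = 0.79, adjusted p = 0.0225, exact permutation), with r = 0.88 without the 2 arrays farthest from the median, although its rho did not pass (0.78, adjusted p = 0.0699). miR-34a-5p had r of -0.40 to -0.07 with the 4 arms of the pair, and 10 of the 12 values of these pairs under other scalings were positive. The r of miR-34a-5p with miR-34a-3p was 0.33 after quantile normalization, against 0.99 without normalization.

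The miRNAs outside the family whose values were most like those of miR-34c-5p over the 8 arrays were, in order, miR-652-3p (r = 0.95), miR-30e-5p (0.95), miR-150-5p (0.94), miR-25-3p (0.93), miR-3584-5p (0.90) and miR-320-3p (0.90). Among all 421 other tested miRNAs, miR-34b-5p ranked 1, miR-34c-3p 5 and miR-34b-3p 7 in likeness to miR-34c-5p, and miR-34a-3p ranked 71 and miR-34a-5p 284. Of these neighbors, miR-652-3p averaged 754 in SO rats at 4 d and 657 in SO rats at 4 h, and miR-150-5p averaged 2675 in SO rats at 4 d and 2370 in SO rats at 4 h. The difference was wider for miR-3584-5p, with 93.9 in SO rats at 4 d and 45.7 in SO rats at 4 h. Most like miR-34a-5p were miR-183-3p (r = 0.95), miR-181a-1-3p (0.94), miR-379-3p (0.94), miR-338-3p (0.92), miR-339-3p (0.87) and miR-33-5p (0.87), and miR-34a-3p, from the same hairpin, ranked 153. These likenesses are descriptions over 8 arrays of 4 groups that share 1 normalization.

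miR-449a-5p, of the locus beside Mcidas and Ccno, was weak throughout. It had intensities of 9.22 and 8.87 in UVD rats at 4 d, 4.14 and not detected in UVD rats at 4 h, 4.94 and 7.31 in SO rats at 4 d, and 8.58 and 4.78 in SO rats at 4 h. The array without detection (UVD replicate 2 at 4 h) was the one with the fewest detected miRNAs, and its lowest detected miRNA had a normalized intensity of 6.15, which is above 3 of the 7 measured values of miR-449a-5p. The lack of detection there bounds the value under both UVD arrays at 4 d, but does not separate it from the SO arrays. With that array at the floor of 1, the log2 fold change was 2.15 ± 0.71 for 4 d against 4 h after UVD (adjusted p = 0.282) and -1.65 ± 0.71 between UVD and SO at 4 h (adjusted p = 0.310, limma). These sizes depend on the floor: with a floor of 4 they were 1.15 for the time change and -0.65 at 4 h, with the values of the authors 0.16 and -0.07, and with normexp 0.10 and -0.02. Without that array the time change was 0.99 (adjusted p = 0.472) and the difference at 4 h -0.56 (adjusted p = 0.501). Without UVD replicate 1 at 4 h, which leaves only the floor value at 4 h, the time change was 3.17 and passed (adjusted p = 0.0462). At 4 d, the 2 UVD arrays lay above both SO arrays, with a log2 fold change of 0.59 ± 0.71 (adjusted p = 0.867).

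The dissected tissue can hold other cell types, and members of several marker lists were lowest or highest on both SO arrays at 4 h. These patterns were common among all 422 tested miRNAs, of which 52 (12.3%) were lowest and 77 (18.2%) highest there. In bulk RNA, fewer cells of a type and less RNA per cell cannot be told apart. The choroid plexus, like ependyma, adjoins the ventricle, and its 5 listed miRNAs were detected on all arrays. Their summed intensity was between 5301 and 6986 in UVD rats at 4 d, 4070 and 4081 in UVD rats at 4 h, 4065 and 4291 in SO rats at 4 d, and 3936 and 3941 in SO rats at 4 h. limma called none of the 5 in any of the 7 comparisons, and between 0 and 3 had an unadjusted p under 0.05. miR-204-5p, the most abundant of them, had 6745 and 5151 in UVD rats at 4 d, 3957 on both arrays of the UVD group at 4 h, 3957 and 4180 in SO rats at 4 d, and 3820 on both arrays of the SO group at 4 h. Most of the choroid plexus sum was miR-204-5p. The sum and miR-34c-5p both had their highest mean in UVD rats at 4 d and their lowest in SO rats at 4 h. For the sum, the SO arrays at 4 h lay only a little below the UVD arrays at 4 h. Of the 5 miRNAs, only miR-204-5p was, like the miR-34b and miR-34c arms, lowest on both SO arrays at 4 h. In the SO group, 3 of the 5 had higher means at 4 d and 2 had lower ones. Among the latter, miR-1298 had means of 14.6 at 4 d and 24.0 at 4 h. The part of choroid plexus in the values of the family was not tested.

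Of 6 miRNAs listed for other ciliated or secretory epithelia, miR-200a-3p, miR-200b-3p, miR-200c-3p and miR-429 were detected on no array. miR-183-5p had 200.0 and 118 in UVD rats at 4 d, 209 and 219 in UVD rats at 4 h, 205 and 226 in SO rats at 4 d, and 152 and 118 in SO rats at 4 h. miR-141-3p had 16.4 and 8.66 in UVD rats at 4 d, 22.5 and 14.0 in UVD rats at 4 h, 20.9 and 28.2 in SO rats at 4 d, and 9.22 and 3.55 in SO rats at 4 h. Neither was called, and for both the UVD arrays at 4 d overlapped with the SO arrays at 4 h, where those of the miR-34b and miR-34c arms did not. The summed level of this list was 131 and 220 in UVD rats at 4 d, 235 and 237 in UVD rats at 4 h, 230.0 and 258 in SO rats at 4 d, and 126 and 165 in SO rats at 4 h.

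The markers that passed the test in the same comparison as miR-34c-5p ran the other way. The Hox-cluster miRNA miR-10a-5p had a mean of 193 in SO rats at 4 d and 472 in SO rats at 4 h (log2 fold change -1.31, adjusted p = 0.0387), and miR-10b-5p had 116 in SO rats at 4 d and 256 in SO rats at 4 h (-1.17, adjusted p = 0.0436). miR-137-3p, a neuronal miRNA, had 569 in SO rats at 4 d and 1038 in SO rats at 4 h (log2 fold change -0.87, adjusted p = 0.0383). All 3 had their 2 highest arrays in SO rats at 4 h, as did 77 of the 422 tested miRNAs (18.2%). The other 6 neuron miRNAs did not pass there, and the summed neuron level was 67360 and 70918 in SO rats at 4 d and 68188 and 71702 in SO rats at 4 h. The part of tissue composition in the values of the miR-34b and miR-34c arms was not tested.

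Most leukocyte miRNAs, like miR-34c-5p, had higher means at 4 d than at 4 h. In the UVD group the median log2 fold change of the list over time was 0.45, where miR-34c-5p had 0.17. For UVD against SO at 4 h the median was 0.13, where miR-34c-5p had 0.55. Of its 6 miRNAs, 5 had an unadjusted p under 0.05 for 4 d against 4 h in the SO group (median log2 fold change 0.34), with 0 called by limma, and 5 over both operations (median 0.36), with 1 called. Among all 422 tested miRNAs, 100 had an unadjusted p under 0.05 over time in the SO group, and 118 over both operations. In the averaged time comparison miR-142-5p, a leukocyte miRNA, was higher at 4 d, with 71.9 at 4 d and 47.1 at 4 h in the UVD group, and 70.1 at 4 d and 55.5 at 4 h in the SO group (log2 fold change 0.47, adjusted p = 0.0498, limma). The summed leukocyte level was between 3900 and 4207 in UVD rats at 4 d and between 3492 and 3542 in UVD rats at 4 h, and between 3711 and 3874 in SO rats at 4 d and between 3192 and 3215 in SO rats at 4 h. The 4 muscle miRNAs had higher means at 4 d in the SO group (median log2 fold change 0.63) and none was called (2 at an unadjusted p under 0.05), with a sum of 2022 and 2380 in SO rats at 4 d and 1599 and 2001 in SO rats at 4 h. Muscle miR-206-3p had means of 64.8 in SO rats at 4 d and 30.7 in SO rats at 4 h. No vessel, oligodendrocyte or erythroid miRNA was called in any of the 7 comparisons, where 0 or 1 per list had an unadjusted p under 0.05, with sums between 7566 and 8420, between 45282 and 59613 and between 739 and 1277 over the 8 arrays.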

How the data were processed

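The authors deposited scanner intensity values of 8 single-color Agilent arrays, read with Feature Extraction 10.7.3.1, and their own normalized intensity values, which are linear and quantile normalized. The deposited total gene signal is the background-subtracted sum over 16 spots per miRNA. Here it was quantile normalized as in the paper's methods, values under 1 were set to 1, and log2 values were fitted with limma 3.58.1 in R 4.3.3 (4 group means, eBayes). The fit was tested on simulated data, where it recovered part of the known changes, more of the large than of the small. A miRNA was called detected by the flag of the deposited files. Every member found by the name rule was reported. From each marker list, miRNAs past the threshold were named, and otherwise up to 2 of the most abundant. The 6 miRNAs most like miR-34c-5p and miR-34a-5p were named by Pearson's r. Members and lists were chosen with earlier results of these data known. Alternatives were other scalings, signals, filters, floors and variance models, the replicate block and leaving out each array. Normexp used the median spot signal, with an offset of 50. The methods' t-test is undefined where values tied by quantile normalization leave both groups without spread. The precision is limited by 2 arrays per group.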

Additional observations from a re-analysis of the deposited data

Results flagged for a closer look

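For miR-449a-5p the mean differed between UVD and SO in opposite directions at the 2 timepoints, with 1 UVD value at 4 h set to the floor. Both UVD arrays lay above both SO arrays at 4 d (log2 fold change 0.59). At 4 h the detected UVD array lay below both SO arrays, and the other had no detected signal, so that its order against the SO arrays is unknown. The log2 fold change of -1.65 at 4 h depends on the floor, and was -0.07 with the values of the authors and -0.02 with normexp, where those at 4 d were 0.11 and 0.07. In the test of the difference itself, the time change in the UVD group minus that in the SO group was 2.24 ± 1.01 (SE) and did not pass (adjusted p = 0.492, limma).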

How the results depend on the processing

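Of 1125 values of log2 fold changes of the 7 tested members under the alternatives, 1042 did not reverse and kept their side of the threshold. This count is not a measure of stability. Settings that change only the filter, the floor or the test mostly repeat the fold change. For UVD against SO at 4 h and for the SO group over time, miR-34a-5p had a fold change of 0 and so no direction to keep. The arms of the miR-34b and miR-34c pair kept a positive direction in every alternative for UVD against SO at 4 h and for 4 d against 4 h in the SO group. For UVD against SO at 4 h, the count of members called was 0, against 2 with normexp and 1 with a trend in the variance model. For 4 d against 4 h in the SO group, the count was 1, against 0 with either scaling to the 75th percentile, with no normalization, with cyclic loess, with no filter on detection, with a floor of 0.1, with only the 2 compared groups in the fit and by the methods' t-test. It was 2 with the values of the authors, with normexp, with miRNAs detected on all 8 arrays and with a trend. Over both operations, the count of 1 became 0 with the 75th percentile of miRNAs detected on all arrays, no normalization, cyclic loess, no filter, a floor of 0.1, robust eBayes and array weights, and 2 with the 75th percentile of all miRNAs, the values of the authors, normexp and a trend. Leaving out 1 array gave 0 to 1 called members in each of these time comparisons and in the UVD group over time, and 0 in the other comparisons.

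Counts over all miRNAs moved further. For the SO group over time, 7 miRNAs were called, against 1 with either 75th percentile, no normalization or cyclic loess, 2 with no filter, 3 with a floor of 0.1, 2 with only the 2 compared groups, 0 by the methods' t-test after adjustment, 19 with the values of the authors and 21 with normexp, and 1 to 12 with 1 array left out. Over both operations, 7 were called, against 2 with the 75th percentile of miRNAs detected on all arrays, 18 with that of all miRNAs, 2 with cyclic loess, 41 with the values of the authors, 67 with normexp, 4 with a floor of 0.1, 36 with a trend and 4 with robust eBayes, and 0 to 32 with 1 array left out (32 without SO replicate 1 at 4 d). For UVD against SO at 4 h, 2 were called, against 7 with normexp, 8 with a trend, 7 with array weights, 9 with only the 2 compared groups, 1 with either 75th percentile or no normalization, 0 with cyclic loess and 0 by the methods' t-test after adjustment, and 1 to 10 with 1 array left out.

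With the replicate number as a block, both calls were lost, with 0 members called and 2 miRNAs called in all for the SO group over time and 0 for both operations. The adjusted p of miR-34c-5p was 0.117 for the SO group over time and 0.0912 over both operations. The numbers were taken from the sample titles, and another sample label numbers the samples differently. Same-numbered arrays of different groups had deviations that correlated between -0.25 and 0.19, which cannot exclude a pairing. The block changed no other call.

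Directions turned only for values that did not pass. For UVD against SO at 4 d, no normalization gave 0.061 for miR-34a-3p, 0.098 for miR-34a-5p, 0.11 for miR-34b-3p and 0.20 for miR-34b-5p. There miR-34b-5p also had 0.016 and 0.026 with scaling to the 75th percentile of miRNAs detected on all arrays and of all miRNAs, 0.055 with cyclic loess and 0.034 with normexp. Averaged over both timepoints, miR-34a-5p had 0.11 and 0.13 with those percentiles, 0.088 with no normalization, 0.012 with cyclic loess and 0.019 with normexp, and miR-449a-5p had 0.017 with the values of the authors and 0.022 with normexp. In the UVD group over time, no normalization gave 0.12 for miR-34a-3p, 0.18 for miR-34a-5p and 0.24 for miR-34b-3p. miR-34b-3p had 0.023 there with cyclic loess and 0.014 with the values of the authors, and miR-34c-3p had -0.0030 with the 75th percentile of miRNAs detected on all arrays and -0.022 with cyclic loess. In the SO group over time, miR-449a-5p had 0.074 with the 75th percentile of all miRNAs and 0.0092 with normexp. Over both operations, miR-34a-3p had -0.0056 with the 75th percentile of miRNAs detected on all arrays, and miR-34a-5p had 0.041 and 0.14 with those percentiles and 0.17 with no normalization. The difference between time changes was 0.020 for miR-34a-5p with no normalization. The cause of these turns was not tested.

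Leaving out 1 array gave -0.19 to 0.086 for miR-34a-3p, -0.20 to 0.036 for miR-34b-3p, -0.083 to 0.039 for miR-34b-5p and -0.067 to 0.27 for miR-34c-3p between UVD and SO at 4 d. It gave -0.24 to 0.031 for miR-34a-3p and -0.11 to 0.074 for miR-34b-3p in the UVD group over time, -0.52 to 0.34 for miR-449a-5p in the SO group over time, and -0.021 to 0.12 for miR-34a-3p over both operations. A lone array was assumed to vary like the other groups.

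The correlation of miR-34a-5p with miR-34b-3p was 0.69 with no normalization, 0.77 with the 75th percentile and 0.15 with the values of the authors. With miR-34b-5p it was 0.80 with no normalization and 0.75 with the 75th percentile. With miR-34c-3p it was 0.53 with no normalization, 0.61 with the 75th percentile and 0.0047 with the values of the authors, and with miR-34c-5p it was 0.75 with no normalization and 0.72 with the 75th percentile.

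With 2 arrays per group, the spread of a group rests on a single difference, and nothing beside this slide repeats it. Probes near the detection limit, here those of miR-449a-5p, carry the least certain values.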
